A study of Mus musculus with 4 samples.

Results

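Terc, the RNA component of telomerase, and the genes of the proteins that assemble with it were followed across purified migrasomes and cytosol of mouse origin. The members were the rows whose gene symbol is Terc, Tert, Dkc1, Nhp2, Nop10, Gar1, Naf1 or Wrap53, 8 of the 49568 symbols in the table, and all 8 were found. A migrasome is a large vesicle that swells on a retraction fibre trailing from a moving cell. Total RNA was sequenced from 2 migrasome and 2 cytosol libraries, grouped by their titles. The labels give no cell type, genotype, strain, age or treatment for either group, so what both groups share beyond the species is not known here.

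Telomerase extends chromosome ends by copying a short template within Terc, with Tert as the reverse transcriptase. The other end of Terc folds as an H/ACA RNA, the same class as the guide RNAs that direct pseudouridine formation in ribosomal and spliceosomal RNA. It is therefore bound by the same proteins, namely dyskerin (Dkc1), Nhp2, Nop10 and Gar1, after assembly on Naf1. Wrap53 binds a short CAB box and brings the particle to Cajal bodies. Terc is known as a mostly nuclear RNA without a coding sequence, whereas the partner mRNAs are translated in the cytoplasm.

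Terc lies on chromosome 3 on the minus strand (GRCm38). It is a single exon of 423 bases in the GENCODE M21 annotation (96414437 to 96414859). RefSeq gives an RNA of 397 bases (96414437 to 96414833), which lacks the first 26 of the GENCODE transcript. The 2 stretches below, numbered from the RefSeq 5′ end and read from the GENCODE transcript, carry the template and the H/ACA elements that the partner proteins recognise. Both are printed 5′ to 3′ as DNA letters. In the first (bases 1 to 60, chr3:96414774-96414833) the capitals mark the telomeric template letters CTAACCC at bases 3 to 9. In the second (bases 278 to 397, chr3:96414437-96414556) they mark, in order, a match to the box H pattern ANANNA, the CAB box letters TGAG and the box ACA.
Terc bases 1 to 60: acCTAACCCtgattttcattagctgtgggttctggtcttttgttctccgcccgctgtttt
Terc bases 278 to 397: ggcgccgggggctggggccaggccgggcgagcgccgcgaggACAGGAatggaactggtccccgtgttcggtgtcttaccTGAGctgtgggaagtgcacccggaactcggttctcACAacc
The ACA stands 3 bases before the end, the place where H/ACA RNAs carry it. Only the RNA strand was searched. Among the 137364 GENCODE transcripts of at least 120 bases, 2.43% have ACA at that place and 0.163% hold CTAACCC in their first 60 bases. The short patterns are common, since 43.6% hold TGAG and 89.2% hold ANANNA in their last 120 bases. The ANANNA match at bases 319 to 324 overlaps another ACA.

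Between 5171092 and 8608369 reads per library fell on genes, fewer in both migrasome libraries than in both cytosol libraries. Each value is a normalised read count as deposited, in which a single read counts for 0.686 to 1.41 depending on the library. For a gene with no read the limit is the worth of 3 reads, 2.06 to 2.33 in cytosol and 3.95 to 4.24 in migrasome, for counting error only. A difference is the migrasome mean minus the cytosol mean of log2(value + 1), given with its standard error (SE), and is understated where values are low. The limma test took in each gene that reached 10 in 2 or more libraries. A gene is called higher or lower where its adjusted p (Benjamini-Hochberg) was under 0.05. Nothing in the labels tells whether libraries of a group are separate cultures, and p-values then reflect the spread among these samples alone, possibly technical. In such bulk RNA, fewer particles that carry an RNA and less of it in each cannot be told apart.

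Terc was lower in migrasome, whereas none of its tested partner mRNAs was. Terc stood at 683 and 941 in cytosol replicates 1 and 2 and at 58.0 and 90.8 in migrasome replicates 1 and 2. Both migrasome libraries lay far below both cytosol libraries. The group values were 812 ± 183 and 74.4 ± 23.2 (SD, n = 2 per group). Behind them are 880 and 1372 cytosol reads and 41 and 69 migrasome reads. For the last 2 the exact 95% Poisson intervals, for counting error only, were 29.4 to 55.6 and 53.7 to 87.3 reads. As normalised counts, those of cytosol replicates 1 and 2 were 638 to 729 and 892 to 992. These cytosol intervals do not overlap, so the libraries differed by more than counting error. The log2 difference was -3.45 ± 0.28 (SE, limma adjusted p = 0.000354), with a 95% interval from -4.06 to -2.83. Terc had the fourth lowest difference of the 10860 tested genes, and the 3 lower ones, Ppt2, Socs1 and Snhg7, had cytosol means of 30.5, 12.6 and 92.5. All 3 reached the value needed for the test in cytosol alone, so their differences could only be negative. Among the 1487 tested genes with a cytosol mean at or above that of Terc, it ranked 1 from the lowest. The next lowest of all tested genes, Gm22009, had a cytosol mean just below that of Terc (795). It stood at 964 and 626 in cytosol and at 82.0 and 61.9 in migrasome, about as low as Terc.

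Tert, the catalytic subunit, was close to the limit of detection. Its values were 5.43 and 3.43 in cytosol and 0 and 1.32 in migrasome, from 7, 5, 0 and 1 reads. It did not reach the value needed for the test. The migrasome to cytosol ratio of its summed reads, corrected for the size factors, was 0.156, with an exact 95% interval from 0.00365 to 1.05 for counting error. The groups did not overlap, as for 69.5% of all tested genes. The interval just includes a ratio of 1, so a lower Tert in migrasome was neither shown nor excluded at this depth.

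**Figure D1:**
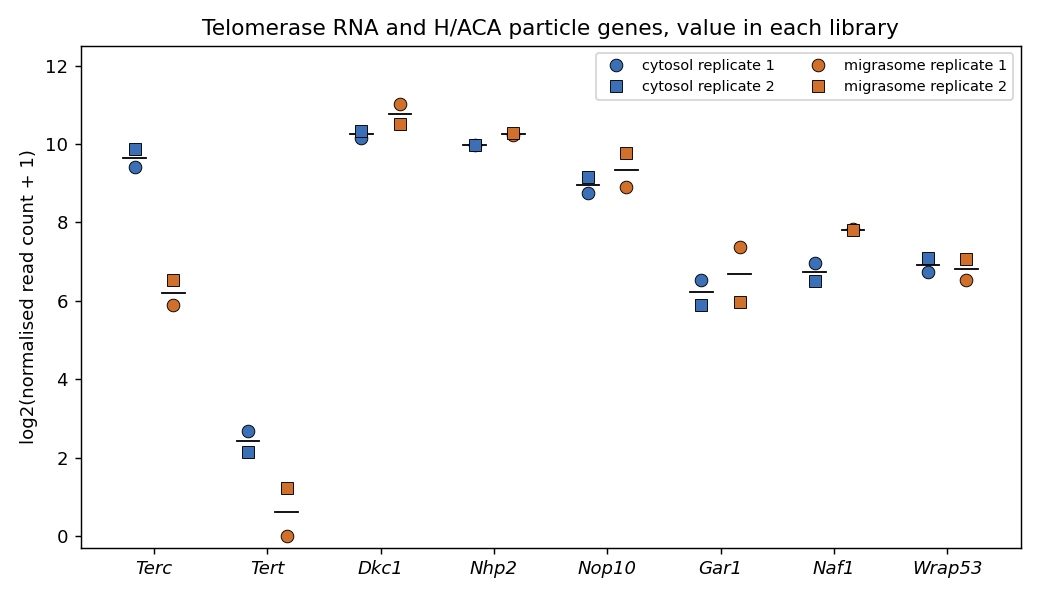
Each member's log2(normalised read count + 1) in the 4 libraries, with a line at the group mean. Terc is the one abundant member whose migrasome points (58.0 and 90.8 normalised reads) sit below its cytosol points (683 and 941), while Tert is the lowest member in every library.

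The mRNAs of the 4 core proteins that clasp an H/ACA RNA had small positive differences, and 0 of 4 passed the limma test. Limma called 26.4% of all tested genes. The median of the 4 was 0.43, and it shrank to 0.156 when scaled to the same total and to 0.299 with quantile normalization. With no adjustment 1 of the 4 had a limma p under 0.05, and edgeR and DESeq2 called 0. Dkc1 encodes dyskerin, the pseudouridine synthase, and lies on chromosome X (75095854 to 75109777, plus strand). It stood at 1143 and 1279 in cytosol and at 2069 and 1457 in migrasome. The groups did not overlap, and migrasome replicate 1 was the higher of its pair. The log2 difference was 0.52 ± 0.23 (SE, limma adjusted p = 0.112), with a 95% interval from 0.01 to 1.03 before adjustment. It was 0.249 when scaled to the same total and 0.223 with quantile normalization. Without migrasome replicate 2 the difference was 0.775 and passed (limma adjusted p = 0.00644), and without migrasome replicate 1 it was 0.269. The last 45 bases of Dkc1 overlap exons of Mpp1 on the other strand, whose reads cannot be separated if the counting ignored strand. Mpp1 stood at 261 and 248 in cytosol and at 453 and 358 in migrasome.

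Nhp2, which encodes a protein that binds the RNA beside Nop10, had the tightest values (chromosome 11, 51619735 to 51623714, plus strand). It stood at 998 and 1004 in cytosol and at 1199 and 1240 in migrasome. Both migrasome libraries were above both cytosol libraries, by less than the test required (log2 difference 0.28 ± 0.19, SE, limma adjusted p = 0.286). The 95% interval with the deposited scaling, from -0.15 to 0.71, lies wholly above that of Terc. Its exons share 44 bases with Rmnd5b on the other strand, which stood at 160 and 164 in cytosol and at 99.0 and 147 in migrasome.

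Nop10 encodes the smallest core protein, which links dyskerin to Nhp2 (chromosome 2, 112261926 to 112263269, plus strand). It stood at 427 and 573 in cytosol and at 478 and 878 in migrasome, and the groups overlapped. Its log2 difference of 0.39 (95% interval -0.27 to 1.04, limma adjusted p = 0.337) depended on the library. It was 0.826 without migrasome replicate 1, where it passed (limma adjusted p = 0.0164), and -0.05 without migrasome replicate 2.

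Gar1 encodes the protein that completes the mature particle (chromosome 3, 129824912 to 129831396, minus strand). It was scarcer, at 91.5 and 58.3 in cytosol and at 165 and 61.9 in migrasome. The groups overlapped, with migrasome replicate 1 well above the other 3 libraries. Its log2 difference was 0.47 (95% interval -0.50 to 1.43, limma adjusted p = 0.432). It was 1.17 and passed without migrasome replicate 2 (limma adjusted p = 0.00845), and it was -0.237 without migrasome replicate 1.

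Naf1 was the one partner mRNA called, and it was higher in migrasome. It encodes the assembly factor that holds the place of Gar1 on the immature particle, and lies on chromosome 8 (66860217 to 66890564, plus strand). It stood at 123 and 89.2 in cytosol and at 225 and 224 in migrasome. The groups did not overlap, and the migrasome libraries were almost equal. The log2 difference was 1.09 ± 0.25 (SE, limma adjusted p = 0.0122), with 159 and 130 cytosol reads and 159 and 170 migrasome reads behind it. With cytosol replicate 2 left out it was 0.857 and not called (limma adjusted p = 0.133).

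Wrap53, whose protein reads the CAB box marked above, differed little (chromosome 11, 69561758 to 69580255, minus strand). It stood at 106 and 134 in cytosol and at 91.9 and 133 in migrasome, and the groups overlapped. The log2 difference was -0.11 (95% interval -0.73 to 0.52, limma adjusted p = 0.792). Its sign turned under quantile normalization (0.252), without cytosol replicate 2 (0.067) and without migrasome replicate 1 (0.157).

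**Figure D2:**
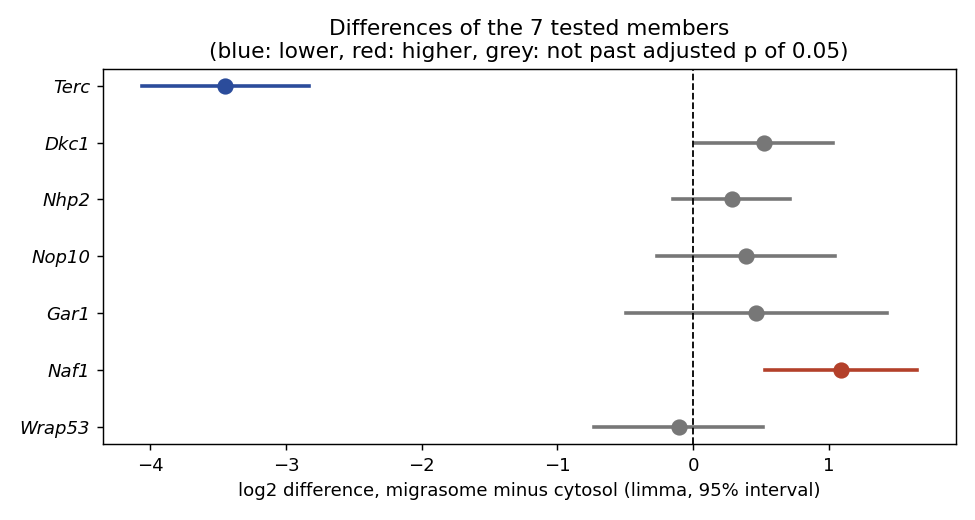
The log2 difference between migrasome and cytosol of each tested member (point) with its 95% limma interval (line), and the median of all tested genes (dashed). Terc lies at -3.45, while the 6 partner mRNAs lie between -0.11 and 1.09.

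Of the 7 partner genes, 6 were tested, 1 was higher and 0 were lower. In the whole table limma called 26.4% of the tested genes, 8.68% as higher and 17.7% as lower (943 and 1919 genes). That split moved with the scaling, to 322 and 2522 when every library had the same total and to 1194 and 1403 with quantile normalization. Two-sided and unadjusted, 2 of the 6 had a limma p under 0.05, and on the recovered reads edgeR and DESeq2 each called 1 of the 6 (28.9% and 25.2% of all tested genes). For 3 of the 6 the groups did not overlap, against 69.5% of all tested genes. The median log2 difference of the 6 was 0.43, beside -0.004 over all tested genes. The 1 call among 6 is near the share called in the whole table. Leaving out cytosol replicate 2 gave a count of 0, beside 13.0% of all tested genes. Leaving out migrasome replicate 1 gave 2, beside 25.4%, and leaving out migrasome replicate 2 gave 3, beside 45.0%.

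**Figure D3:**
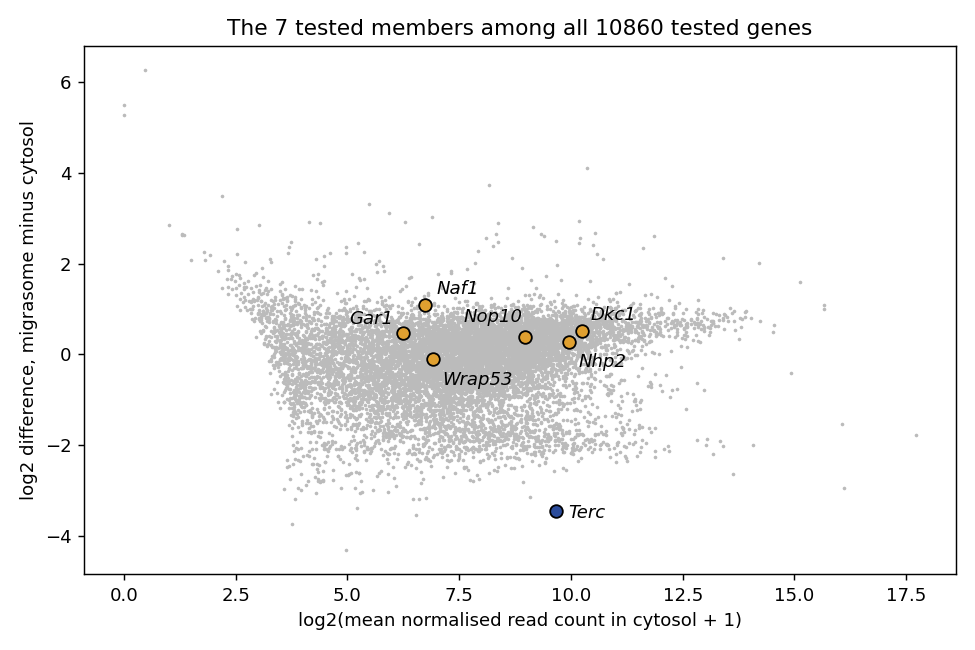
The log2 difference of every tested gene (grey) against its log2 mean in cytosol, with Terc in blue and the 6 tested partner mRNAs in orange. The partners sit within the main band, and Terc lies below the other genes with a cytosol mean at or above its own.

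Within each library, Terc was set against each partner, a measure that hardly moves with the scaling between libraries. The Terc to Dkc1 ratio of normalised counts was 0.597 and 0.736 in cytosol and 0.0280 and 0.0623 in migrasome. The Terc to Nop10 ratio was 1.60 and 1.64 in cytosol and 0.121 and 0.103 in migrasome, the tightest of the core proteins. The Terc to Wrap53 ratio was 6.47 and 7.0 in cytosol and 0.631 and 0.683 in migrasome. For all 6 partners both migrasome ratios lay below both cytosol ratios. On the log2(value + 1) scale, the ratio was 10.1-fold lower in migrasome for Wrap53 and 23.2-fold lower for Naf1, with the other 4 in between.

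Against the mean of the 6 partners, the log2 value of Terc was 1.48 ± 0.35 in cytosol and -2.41 ± 0.51 in migrasome (SD, n = 2 per group). The change was -3.89, far larger than either spread. An exact permutation test over the libraries gave a two-sided p = 0.333, the smallest that 2 against 2 can give. Leaving out each library in turn gave changes between -4.245 and -3.529.

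**Figure D4:**
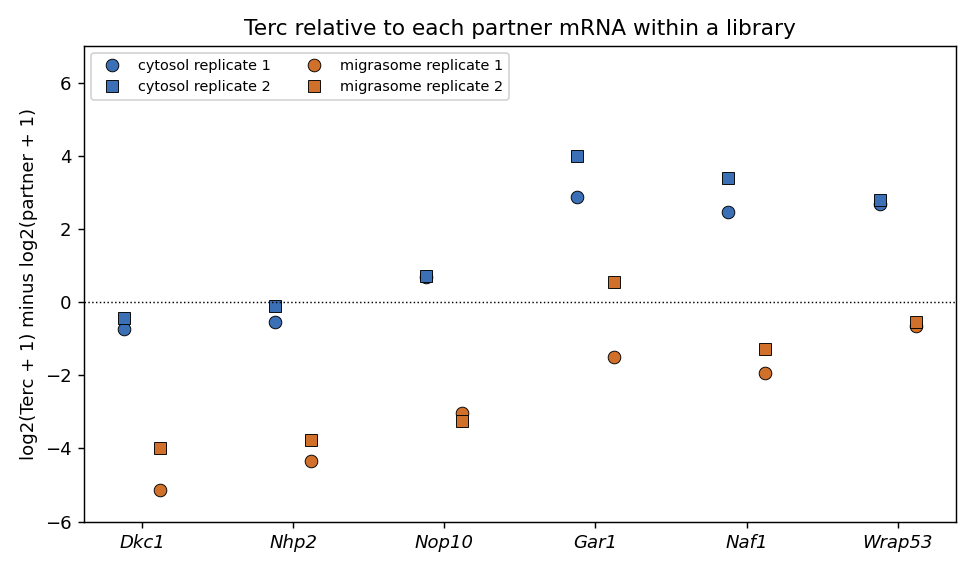
The log2 value of Terc minus that of each partner mRNA, 1 point per library. Each cytosol point (blue) lies above each migrasome point (orange) for all 6 partners, and the change between groups runs from -3.34 for Wrap53 to -4.54 for Naf1.

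Levels of different genes were compared per kilobase of exon (normalised reads per kb, mean ± SD, n = 2). The length joins the exons of all annotated transcripts of a gene, so it can exceed that of the mRNA made. For Nop10 it was 1109 bases, against a RefSeq span of 973. The order of members depends on this length. Without it, Dkc1 (1211) and Nhp2 (1001) had higher cytosol means than Terc (812). In cytosol Terc was the most abundant member at 1920 ± 432, followed by Nhp2 at 874 ± 3.54, Nop10 at 451 ± 92.6 and Dkc1 at 294 ± 23.4. Wrap53 (58.2 ± 9.92), Gar1 (43.7 ± 13.7) and Naf1 (34.3 ± 7.81) came next, and neighbours among these 3 overlapped. In migrasome Nhp2 led at 1064 ± 25.5, then Nop10 at 611 ± 255 and Dkc1 at 428 ± 105, which overlapped. Terc came after them at 176 ± 54.9, apart from both Dkc1 above and Naf1 (72.5 ± 0.262) below. Gar1 (66.3 ± 42.7) and Wrap53 (54.5 ± 14.1) overlapped their neighbours, and Tert was the lowest member in both groups. Among the 4 core mRNAs the order Nhp2, Nop10, Dkc1, Gar1 was the same in both groups.

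Assembly factors of H/ACA particles, a list that includes Naf1, had positive differences in 6 of 6, of which 1 turned negative with quantile normalization and 2 when scaled to the same total. Of 6 tested, 1 was higher and 0 were lower, with a median of 0.43 and Naf1 as the one called. Among all tested genes 8.68% were higher and 17.7% lower. Nolc1, a chaperone of nucleolar and Cajal body particles, had the highest mean normalised read count of the list over the 4 libraries, not corrected for length. It stood at 1026 and 1257 in cytosol and at 1281 and 1329 in migrasome (log2 difference 0.20, limma adjusted p = 0.474), and its sign turned with quantile normalization (-0.034) and when scaled to the same total (-0.071). Ruvbl1, an ATPase of the R2TP assembly machinery, stood at 547 and 854 in cytosol and at 1120 and 1038 in migrasome without passing (limma adjusted p = 0.0696). It passed without cytosol replicate 2 (limma adjusted p = 0.0437) and without migrasome replicate 2 (limma adjusted p = 0.0326).

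Of 13 genes that process or degrade telomerase RNA, 2 were higher and 0 were lower (median 0.32). The shares over all tested genes were 8.68% and 17.7%. Dcp2, the decapping enzyme, stood at 312 and 276 in cytosol and at 484 and 795 in migrasome (log2 difference 1.08 ± 0.26, SE, limma adjusted p = 0.015). Exosc10, a nuclear exosome nuclease, stood at 342 and 406 in cytosol and at 660 and 607 in migrasome (0.76, limma adjusted p = 0.0243). Exosc10 was no longer called without cytosol replicate 1 (0.639, limma adjusted p = 0.237) or 2 (0.886, limma adjusted p = 0.0786), or with eBayes without a trend (limma adjusted p = 0.0611). With every library scaled to the same total both calls were lost (0.806 for Dcp2 and 0.491 for Exosc10). Parn, the deadenylase that matures the end of Terc, stood at 94.6 and 74.1 in cytosol and at 161 and 84.2 in migrasome without passing (limma adjusted p = 0.303), but it passed without migrasome replicate 2 (0.937, limma adjusted p = 0.0153). Ncbp1, a cap-binding protein with the highest normalised read count of the list (not corrected for length), stood at 787 and 793 in cytosol and at 1239 and 1042 in migrasome (limma adjusted p = 0.078). It passed without migrasome replicate 2 (limma adjusted p = 0.0164).

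Of 5 Cajal body genes, Wrap53 among them, 0 were higher and 1 was lower (median -0.11, and 0.252 with quantile normalization). The lower one was Uspl1, a SUMO protease of Cajal bodies, at 279 and 316 in cytosol and 129 and 154 in migrasome (-1.07, limma adjusted p = 0.00852). Leaving out cytosol replicate 2 ended its call (-0.983, limma adjusted p = 0.0785). Of 10 shelterin and CST genes, which cap the telomere that telomerase extends, 0 were higher and 1 was lower. Their median was 0.10, and -0.175 when scaled to the same total. Both lists stand beside 8.68% higher and 17.7% lower among all tested genes. Terf1, a protein that binds telomeric DNA, stood at 176 and 124 in cytosol and at 87.7 and 61.9 in migrasome (-0.996, limma adjusted p = 0.0327). The call ended when cytosol replicate 1 was left out (-0.745, limma adjusted p = 0.284) and under quantile normalization (-0.644, limma adjusted p = 0.151). It also ended with no filter on low values (limma adjusted p = 0.0753) and with eBayes without a trend (limma adjusted p = 0.0574). Obfc1, a CST subunit with the highest normalised read count of the list, stood at 220 and 329 in cytosol and at 305 and 337 in migrasome without passing (limma adjusted p = 0.454). Its difference turned slightly negative without cytosol replicate 1 (-0.034) and when scaled to the same total (-0.019).

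Box C/D particles guide RNA methylation and served as a sister class. Of their 4 core protein mRNAs 0 passed the limma test, 1 had an unadjusted limma p under 0.05, and edgeR called 0 and DESeq2 1. Over all tested genes limma called 26.4%, edgeR 28.9% and DESeq2 25.2%. These 4 mRNAs thus give no call count to set above that share. Their median was 0.37, and -0.052 with quantile normalization. Nop58, with the highest normalised read count of the 4 (not corrected for length), stood at 2514 and 2656 in cytosol and at 4705 and 3301 in migrasome (log2 difference 0.61, limma adjusted p = 0.0777). It passed without migrasome replicate 2 (0.864, limma adjusted p = 0.00326) and in DESeq2 (adjusted p = 0.0353).

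Of the other RNAs of the H/ACA class, 6 of the 11 tested were lower in migrasome, against 17.7% of all tested genes. The table lists 40 Snora symbols, 20 of them with a read, and 11 were tested. None was called higher, and all differences were negative, from -2.33 to -0.50 with a median of -1.42. Snora16a, Snora33 and Snora34 reached the value needed for the test in cytosol alone, so their differences could only be negative. Snora33 and Snora34 are among the 6 that were lower. On the recovered reads edgeR called 7 lower and DESeq2 4. The choice of these RNAs followed a look at their values. The ends of Terc and of 4 of the 6 that were lower are printed to show the shared box ACA in capitals, each as the last 24 bases of the RNA, 5′ to 3′, in GRCm38 annotation.
Terc: acccggaactcggttctcACAacc
Snora73b: agacaaaccatgcaggaaACAaaa
Snora73a: agacaaaccatgcaggaaACAgtt
Snora21: acttcaatcggtgttgtgACAaga
Snora57: ctatcctcagacgccggaACActt
Of the 11 tested, 9 end this way, and so do all 6 that were lower. Snora17 and Snora23 carry an ACA 2 bases and 1 base before their annotated ends. Snora73b (chromosome 4, 132352322 to 132352526, minus strand) stood at 460 and 656 in cytosol and at 269 and 155 in migrasome (-1.42, limma adjusted p = 0.00734). Its near-identical copy Snora73a makes either value uncertain. Snora21, which is 137 bases long, stood at 54.3 and 75.4 in cytosol and at 11.3 and 15.8 in migrasome (-2.18, limma adjusted p = 0.00256). Of the 6 calls, Snora33 and Snora34 lost theirs when cytosol replicate 1 or 2 was left out, and Snora57 when cytosol replicate 2 was (limma adjusted p of 0.088 to 0.266). The call of Snora33 also ended with no filter (limma adjusted p = 0.0834) and quantile normalization (limma adjusted p = 0.097), and DESeq2 called neither Snora33 (adjusted p = 0.166) nor Snora34 (adjusted p = 0.0702).

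The Scarna RNAs of Cajal bodies were also chosen after their values were seen. By limma 6 of 6 tested were lower (median -1.92), against 17.7% of all tested genes. On the recovered reads edgeR called 6 lower and DESeq2 4. Scarna3a (11.6 and 17.1) and Scarna3b (13.2 and 32.2) reached the value needed for the test in cytosol alone. In migrasome they stood at 2.83 and 1.32 and at 5.66 and 3.95. Their differences could thus only be negative, and their sign adds nothing to the 6 of 6. Of the 6 tested, 1 ends with the same ACA, whereas Scarna2 (-1.86) and Scarna10 (-1.95) have no ACA in their last 24 bases. Scarna3a and Scarna3b carry an ACA 2 bases before their annotated ends, and Scarna6 carries one 15 bases before its own. Scarna13, the one with ACA 3 bases before its end, is 275 bases long. It stood at 211 and 154 in cytosol and at 77.8 and 59.2 in migrasome (-1.40, limma adjusted p = 0.00591), a call that ended when cytosol replicate 1 was left out (-1.173, limma adjusted p = 0.0624). The calls of Scarna3a and Scarna3b, which had few reads, were also lost without cytosol replicate 2 (limma adjusted p = 0.235 and 0.383), and that of Scarna3a without cytosol replicate 1 (limma adjusted p = 0.0953). DESeq2 called neither (adjusted p = 0.0815 and 0.064), and the call of Scarna3b also ended with no filter (limma adjusted p = 0.0792) and quantile normalization (limma adjusted p = 0.0793).

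Of 7 nuclear non-coding RNAs of other kinds, 5 were lower, against 17.7% of all tested genes. All 7 had negative differences, beside 5451 of the 10860 tested genes, and none of the 7 was at 0 in any library. Their summed value was 342383 to 384962 in cytosol and 82651 to 124195 in migrasome, mostly from Rpph1, Rmrp and Rn7sk. The part of nuclear RNA content in the result for Terc was not tested. Rn7sk, the 7SK RNA, had a difference of -2.94 with a 95% interval from -3.69 to -2.18, which overlaps that of Terc. Rpph1, the RNA of RNase P, had -1.77, Rmrp -1.53, Rnu12 -1.45 and Rnu11 -1.06, each past the limma test. Calls were lost without cytosol replicate 1 for Rpph1, Rmrp and Rnu11, without cytosol replicate 2 for Rpph1 and without migrasome replicate 2 for Rnu11 (limma adjusted p from 0.0717 to 0.193). With no filter Rpph1 and Rnu11 were not called (limma adjusted p = 0.0684 and 0.0922), and Rnu11 was not called with quantile normalization (0.0944) or eBayes without a trend (0.0835). The long RNAs Malat1 (-0.79, limma adjusted p = 0.0842) and Neat1 (-0.86, limma adjusted p = 0.113) did not pass. Without cytosol replicate 2 both passed (limma adjusted p = 0.0323 and 0.000435), as they did in DESeq2 (adjusted p = 0.0324 and 0.0397). Malat1 passed without migrasome replicate 1 as well (limma adjusted p = 0.0287), when scaled to the same total (0.0318) and with quantile normalization (0.0119), and Neat1 in edgeR (adjusted p = 0.0456).

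**Figure D5:**
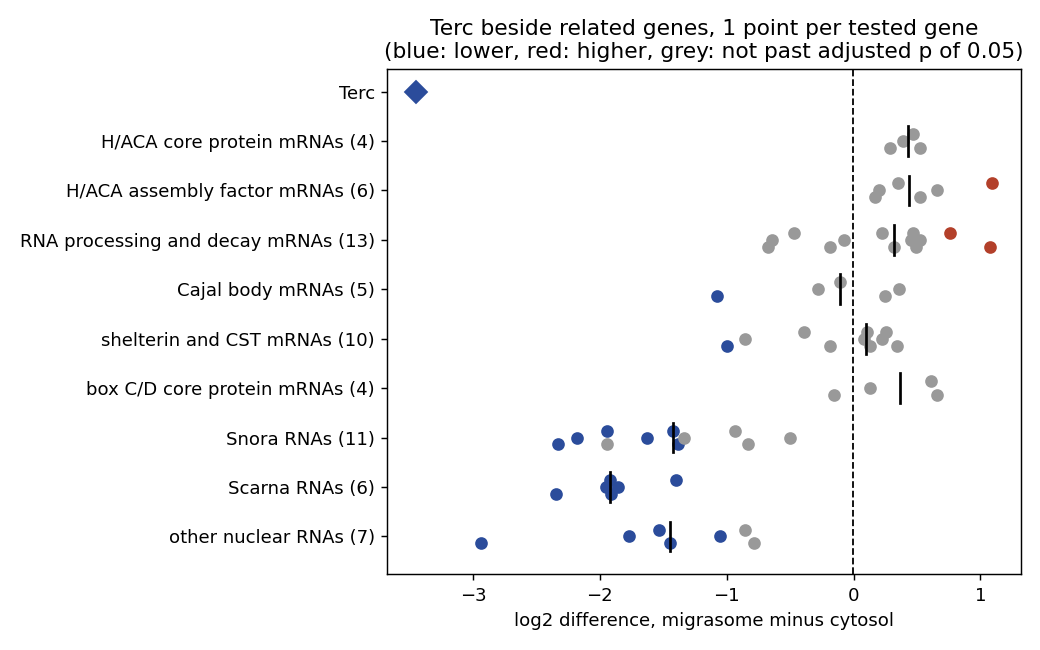
The log2 difference of each tested gene in 9 related lists, with Terc on the top line, the list median as a black bar, and the number tested in parentheses. The 6 lists of mRNAs have medians between -0.11 and 0.43, and the 3 lists of RNAs have medians between -1.92 and -1.42. The Snora and Scarna lists were chosen after their values were seen. Their points include Snora16a, Snora33, Snora34, Scarna3a and Scarna3b, tested through cytosol alone, whose differences could only be negative.

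Protein partners of the other RNAs were looked at in the same way. Of the 6 tested mRNAs of 7SK proteins, 0 were higher and 1, the P-TEFb inhibitor Hexim1, was lower (-0.97, list median -0.46). That call did not hold without cytosol replicate 1 (limma adjusted p = 0.0793) or 2 (limma adjusted p = 0.156), or with quantile normalization (limma adjusted p = 0.0733). Ccnt1, a cyclin of P-TEFb with the highest normalised read count of the list (not corrected for length), had a difference of 0.14 without passing. It was 0.609 and passed without migrasome replicate 1 (limma adjusted p = 0.0476), and it was negative without migrasome replicate 2 (-0.327) and when scaled to the same total (-0.131). Of 9 tested mRNAs of RNase P and MRP proteins, 1, Rpp40, was higher (0.93) and 0 were lower (list median 0.15). For both lists the shares over all tested genes were 8.68% higher and 17.7% lower. Rpp40 was no longer called without cytosol replicate 1 (limma adjusted p = 0.126), without migrasome replicate 1 (limma adjusted p = 0.0611) or when scaled to the same total (limma adjusted p = 0.0748). The same held with no filter (limma adjusted p = 0.0548) and with eBayes without a trend (limma adjusted p = 0.0568), so that 5 of 15 alternatives ended the call. Rpp30, with the highest normalised read count of the list (not corrected for length), had 0.33 without passing. The list median was -0.12 when scaled to the same total. Whether the gap between RNA and protein partners differs between these particles was not tested.

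With predicted gene models left out, the 6 tested genes nearest to Terc in pattern over the 4 libraries were Adm2, Socs1, Snhg7, Rn7sk, Pcdhb5 and Gdpgp1. Likeness was the Euclidean distance of mean-centred log2(value + 1), from 0.475 for Adm2 to 0.716 for Gdpgp1. Rn7sk was the one abundant gene among them, at 69225 and 71563 in cytosol and at 6647 and 12733 in migrasome. The others had cytosol means of 12.6 (Socs1) to 92.5 (Snhg7), so their patterns rest on few reads. Each of these others reached the value needed for the test in cytosol alone. Their differences could thus only be negative, and the direction they share with Terc was set by the filter. Adm2, which encodes a secreted peptide, stood at 50.4 and 68.6 in cytosol and at 4.24 and 9.21 in migrasome. The calls of Socs1 and Pcdhb5 ended without cytosol replicate 2 (limma adjusted p = 0.133 and 0.105) and that of Gdpgp1 without cytosol replicate 1 or 2 (limma adjusted p = 0.0558 and 0.0623).

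As a check of the material, the fibroblast genes Col1a2 and Vim were abundant in all 4 libraries, though Col1a2 was called lower and Vim higher. Of the 10 fibroblast markers 8 were tested, 5 were lower and 1 was higher, beside 17.7% and 8.68% of all tested genes. Thy1 (7.54 to 23.7) and Dcn (0 to 4.24) were scarce, and Lum was at 0 in every library. Summed values over the 5 epithelial markers were at most 2.83 and over the 4 endothelial markers at most 3.95 in any library, and over the 5 immune markers at most 7.54.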

How the data were processed

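The members and gene lists were chosen with earlier results of these data known. Per the submitters' processing notes, the tools were cutadapt, Trimmomatic, FastQC, STAR, HTSeq and DESeq (no versions) on GRCm38. The deposited table holds a normalised signal: each gene's count over a size factor of the library, by the tools that the labels list and by the values. The sources used here do not give the annotation, strand setting or handling of multi-mapping reads. All values (100%) were whole multiples of the smallest non-zero value of their library, within 0.001, which gave back whole reads. Because the values are normalised, limma 3.58.1 in R 4.3.3 (eBayes, trend on) on log2(value + 1) was the main test, over every gene that reached 10 in 2 or more libraries, with no replicate block and Benjamini-Hochberg adjustment over all of them. Alternatives were edgeR 4.0.16 and DESeq2 1.42.0 on the reads, other pseudocounts, filters and scalings, a replicate block, and leaving out each library. Named were all members, the called genes of each list and its gene with the highest mean normalised count, the genes overlapping a member, and the 6 genes nearest to Terc (no predicted models). Ruvbl1, Parn, Malat1, Neat1, Ppt2, Gm22009, Thy1, Dcn and the Snora and Scarna genes were named after their values were seen. GENCODE M21 gave positions and sequences, and RefSeq (GRCm38.p6) the ends of Terc. Figures were made in matplotlib 3.10.9.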

Additional observations from a re-analysis of the deposited data

How the results depend on the processing

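Terc stayed lower, and past the threshold, in all 15 alternatives run, with log2 differences from -3.766 to -3.128 and limma, edgeR or DESeq2 adjusted p at most 0.00673. Its change against the mean of the tested partners ranged from -4.245 to -3.529 over 9 alternatives. The number of partner mRNAs past the threshold was 1 in 11 of 15 alternatives, 2 with a replicate block and 0 to 3 when each library was left out. Differences turned sign in 11 cases, none of them past the threshold. For Wrap53 this was under quantile normalization (0.252), without cytosol replicate 2 (0.067) and without migrasome replicate 1 (0.157). For Nop10 it was without migrasome replicate 2 (-0.05), and for Gar1 without migrasome replicate 1 (-0.237). For Nolc1 it was under quantile normalization (-0.034) and scaling to the same total (-0.071), for Obfc1 under that scaling (-0.019) and without cytosol replicate 1 (-0.034), and for Ccnt1 under that scaling (-0.131) and without migrasome replicate 2 (-0.327). Over the 4 left-out libraries the difference ranged from -0.05 to 0.826 for Nop10, from -0.237 to 1.168 for Gar1, from -0.37 to 0.157 for Wrap53, from -0.034 to 0.54 for Obfc1 and from -0.327 to 0.609 for Ccnt1. The cause was not tested. Over 47 genes besides Terc, which include each gene whose difference is given, 600 of 692 values kept their direction and side of the threshold, 49 lost a call and 32 gained one. Scaling to the same total moved the median of all genes by -0.269, quantile normalization by 0.116 and TMM by -0.012. With 1 library left in a group, that library is assumed to vary like the other group.

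The labels number the replicates in both groups but do not say that the numbers pair libraries. Within-group differences of same-numbered libraries correlated at 0.226 across genes. A replicate block leaves little spread per gene with 4 libraries. Its very small p-values rest mostly on spread pooled over all genes, not on that of the gene itself. With the replicate block Terc was at -3.447 (limma adjusted p = 4.1e-47), Dkc1 passed (0.522, limma adjusted p = 0.0446), as did Nop58, Ncbp1, Ruvbl1, Malat1, Neat1 and Mpp1 (limma adjusted p at most 0.0416), and the block called 40.7% of all tested genes against 26.4% without it. Tert had 0 to 7 reads per library, which left it out of the test.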
